A study of Mus musculus with 188 samples.

Results

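The 6 myeloid C-type lectin receptor genes Clec4n, Clec4d, Clec4e, Clec7a, Clec12a and Clec5a were followed across every labelled treatment, dose and time in mouse organotypic brain slice cultures (BSCs). All 6 were found by their Ensembl identifiers among 25655 genes counted in batch 1 and 25528 counted in batches 2 and 3, and all 6 passed the filter on low counts in both sets. Clec4n and Clec4d were chosen by their measured rise with HbHp at 200 μM for 48 h against control, and the others as receptors of the same family, so every comparison that uses those treated libraries is given as a description with no test. The controls at 48 h entered that choice too. For Clec4n and Clec4d every value against them is therefore also a description, without a p, and nothing is read from it.

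The cultures were coronal slices from perfused C57BL/6J mice of both sexes aged 6 to 8 weeks, held without serum from day 4 and treated on day 7, and each library was whole-slice poly(A) mRNA. The purified proteins were of human origin. In batch 1 all groups were sampled at 24 h, with 10 libraries each: untreated control, heme-albumin at 12.5, 50, 200 and 400 μM, and hemeHpx (heme bound to the scavenger hemopexin) at 200 μM. The titles of the hemeHpx libraries name haptoglobin, whereas their treatment tags, library names and the study's methods name hemopexin, which is followed here. In batches 2 and 3 the groups were untreated control (10 libraries at 24 h and 9 at 48 h), Hb (hemoglobin) at 200 and 400 μM (10 libraries in each of 4 groups), HbHp (Hb bound to its scavenger haptoglobin) at 200 μM (8 at each time) and 400 μM (4 at 24 h and 5 at 48 h), and Hp (haptoglobin alone) at 400 μM (12 at 24 h and 11 at 48 h). Of the 188 libraries, 167 could be assigned to these 18 groups. Cultured slices have no circulation. The labels do not say whether libraries came from separate animals, so the p-values measure the spread between libraries, which may be technical.

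Library totals ran from 11038484 to 44199060 counts in batch 1 and from 15587938 to 54174784 in the assigned libraries of batches 2 and 3, and none of 630 pairs of libraries of the same group and batch agreed within sampling noise. Library names in batches 2 and 3 carry a code, E1 or E2, that the labels do not explain and that is treated here as a culture round. All HbHp libraries were batch 3 and E2, whereas 6 of 9 controls at 48 h were batch 2 and E1 and 2 of 9 were E2. Batch and round were therefore terms of the fit, and values within rounds are given beside several of the Hb, HbHp and Hp results. Levels are CPM, counts scaled to a common TMM-adjusted library size. Fold changes are log2 values with their standard errors (SE) from edgeR, and a gene was called at a Benjamini-Hochberg adjusted p under 0.05 over all genes tested.

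C-type lectin receptors of myeloid cells are surface proteins that recognise glycans, glycolipids and products of damaged cells. Clec4n (dectin-2), Clec4d (MCL) and Clec4e (Mincle) pair with the Fc receptor gamma chain, Clec5a (MDL-1) pairs with the DAP12 adaptor, and Clec7a (dectin-1) carries its own signalling motif. All of these activate the kinase Syk, which works through the Card9, Bcl10 and Malt1 complex to induce cytokines, whereas Clec12a (MICL) recruits phosphatases that restrain such signalling. In brain these genes belong to microglia, border macrophages and infiltrating blood cells, and Clec7a is a known marker of activated microglia.

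All 6 genes lie on mouse chromosome 6. Windows of 250 bases before the annotated start were available from RefSeq (GRCm38.p6) for 5 of them, all but Clec4n. The windows of Clec4d, Clec7a, Clec5a and Clec12a are shown, as the levels of Clec7a and Clec5a were the most alike of any pair and, with heme-albumin at 400 μM, Clec4d was higher and Clec12a lower. They are given 5′ to 3′ along each gene's own strand. Clec4d lies at chr6:123261857-123262106 on the plus strand, Clec7a at chr6:129472780-129473029 on the minus strand, Clec5a at chr6:40585806-40586055 on the minus strand and Clec12a at chr6:129349994-129350243 on the plus strand. Capitals mark the core of the PU.1 motif, GAGGAA or its reverse complement TTCCTC, PU.1 being the transcription factor that defines myeloid cells.
Clec4d: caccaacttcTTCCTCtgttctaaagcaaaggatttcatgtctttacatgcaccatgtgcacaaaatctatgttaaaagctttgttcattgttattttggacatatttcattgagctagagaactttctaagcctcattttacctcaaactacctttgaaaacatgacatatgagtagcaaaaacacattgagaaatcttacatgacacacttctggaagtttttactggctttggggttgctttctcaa
Clec7a: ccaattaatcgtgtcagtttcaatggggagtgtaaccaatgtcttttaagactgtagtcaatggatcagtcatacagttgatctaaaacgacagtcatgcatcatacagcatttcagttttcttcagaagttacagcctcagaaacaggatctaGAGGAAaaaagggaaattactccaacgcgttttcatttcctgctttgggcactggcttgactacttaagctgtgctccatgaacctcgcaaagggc
Clec5a: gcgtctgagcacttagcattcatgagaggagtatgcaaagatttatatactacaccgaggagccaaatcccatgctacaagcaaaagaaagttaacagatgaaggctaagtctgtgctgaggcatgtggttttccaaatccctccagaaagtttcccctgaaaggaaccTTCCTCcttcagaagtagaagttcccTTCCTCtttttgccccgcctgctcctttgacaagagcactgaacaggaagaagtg
Clec12a: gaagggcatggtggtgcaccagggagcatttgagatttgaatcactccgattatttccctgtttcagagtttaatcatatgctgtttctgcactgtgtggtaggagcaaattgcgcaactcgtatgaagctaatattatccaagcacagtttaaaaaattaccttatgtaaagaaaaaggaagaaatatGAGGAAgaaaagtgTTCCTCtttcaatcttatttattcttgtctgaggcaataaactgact
The PU.1 core stood once in the windows of Clec4d and Clec7a and at 2 places in those of Clec4e, Clec5a and Clec12a. All 5 windows thus held it on 1 strand or the other, against 23.3% of 32807 windows of the same length. The C/EBP motif TTGCNNAA, searched on both strands, stood in the windows of Clec4e and Clec12a (9.57% of all windows), and the AP-1 motif TGANTCA in that of Clec12a (6.75%). The antioxidant response motif TGACNNNGC, the known site of NRF2, stood in none of the 5 (10.2%). Such matches describe these letters alone.

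In untreated slices Clec4d and Clec7a were the most abundant of the 6 transcripts and Clec4e was close to the detection limit. Per kilobase of exon, the median level in batch 1 controls was 18.9 CPM for Clec4d, 14.1 for Clec7a, 3.38 for Clec4n, 2.66 for Clec5a, 0.751 for Clec12a and 0.0602 for Clec4e. In batches 2 and 3 Clec7a led at 24 h (21.7 CPM per kilobase, against 15.4 for Clec4d) and at 48 h (33.5 against 11.01). Clec4e rested on 1 to 13 counts per library in batch 1 controls, so its values are imprecise. With HbHp at 400 μM for 48 h Clec4d was at 113, Clec7a at 79.4 and Clec4n at 34.4 CPM per kilobase. The controls at 48 h helped to choose Clec4d and Clec4n, so nothing is read from how this order differs from theirs.

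The heme-albumin series asked how the slices answer rising amounts of heme-albumin. No group held albumin alone, so effects of heme and of albumin cannot be told apart. Clec4n rose with dose, Clec12a fell, and the other 4 receptors moved little or at single doses. Clec4n, the receptor for mannose-rich glycans, lay between 2.45 and 9.67 CPM in the 10 control libraries, with a median of 4.80. It lay between 6.32 and 11.6 (median 8.38) at 12.5 μM, between 9.11 and 26.8 (median 12.5) at 50 μM, between 13.6 and 27.7 (median 16.03) at 200 μM and between 11.9 and 40.7 (median 21.01) at 400 μM. All 10 libraries at 200 μM and all 10 at 400 μM were above every control, which held for 0.553% and 1.37% of all genes. At 50 μM 9 of 10 libraries were above every control, and at 12.5 μM 1 of 10 was. The difference from control was 0.64 ± 0.20 (SE, adjusted p = 0.61) at 12.5 μM and 1.37 ± 0.20 (adjusted p = 6.9e-06) at 50 μM. It reached 1.75 ± 0.20 (adjusted p = 3.3e-09) at 200 μM and 2.04 ± 0.20 (adjusted p = 5.6e-12), or 4.12-fold, at 400 μM.

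Clec12a, the inhibitory receptor of the group, went the other way. Its levels were 2.03 to 9.64 CPM (median 4.15) in controls, 0.913 to 2.52 (median 1.83) at 200 μM and 0.533 to 2.34 (median 1.39) at 400 μM. At 200 μM 6 of 10 libraries and at 400 μM 8 of 10 were below the lowest control, with an overlap in the others. The fall was -1.51 ± 0.27 (SE, adjusted p = 6.1e-05) at 200 μM and -1.81 ± 0.27 (adjusted p = 5.0e-07) at 400 μM, whereas the value of -0.82 at 50 μM did not pass (adjusted p = 0.19). With the code in the library names as a replicate block, the value at 50 μM passed (-0.85, adjusted p = 0.032). The libraries at 400 μM held 9 to 57 Clec12a counts each.

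Clec7a, the beta-glucan receptor, was lower at 200 μM. It lay between 26.7 and 92.0 CPM (median 37.2) in controls, between 16.2 and 41.01 (median 24.1) at 200 μM and between 16.8 and 59.2 (median 34.7) at 400 μM. The difference was -0.89 ± 0.26 (SE, adjusted p = 0.016) at 200 μM and -0.49 (adjusted p = 0.16) at 400 μM. The DAP12 partner Clec5a gave -0.58 ± 0.22 (adjusted p = 0.065) at 200 μM and -0.47 (adjusted p = 0.10) at 400 μM by edgeR. At 200 μM DESeq2 called it (-0.59, adjusted p = 0.047).

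Clec4d, which is known to help bring Clec4e to the surface, passed the test at 400 μM. Its levels overlapped at all doses, with 19.8 to 58.6 CPM (median 30.3) in controls and 31.03 to 80.3 (median 51.5) at 400 μM, a difference of 0.63 ± 0.21 (SE, adjusted p = 0.021). Clec4e itself was at 0.0841 to 0.588 CPM (median 0.299) in controls and 0.320 to 4.82 (median 0.774) at 400 μM. There it differed by 1.77 ± 0.56 (adjusted p = 0.013), with 7 of 10 libraries above every control. One library at 50 μM held 6.71 CPM and one at 400 μM held 4.82, far above the others. Without both of them the difference at 400 μM was 1.09 and still past the threshold.

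Over the 4 doses, the numbers of members called were 0, 1, 3 and 4 at 12.5, 50, 200 and 400 μM, against 0.045%, 0.463%, 13.6% and 29% of all genes tested. The median log2 fold change of the 6 was -0.11 at 200 μM and 0.08 at 400 μM, close to that of all genes. At 12.5 μM edgeR called no member, with 1 at an unadjusted p under 0.05 and none by DESeq2. None of 18 tests of neighbouring doses was called by edgeR (0%, 0.797% and 1.27% of all genes for the 3 steps), with 8 at an unadjusted p under 0.05 and none by DESeq2. The largest Clec4n step was from 12.5 to 50 μM, at 0.74 (adjusted p = 0.68), and the last step gave 0.29 ± 0.19 (SE).

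**Figure D1:**
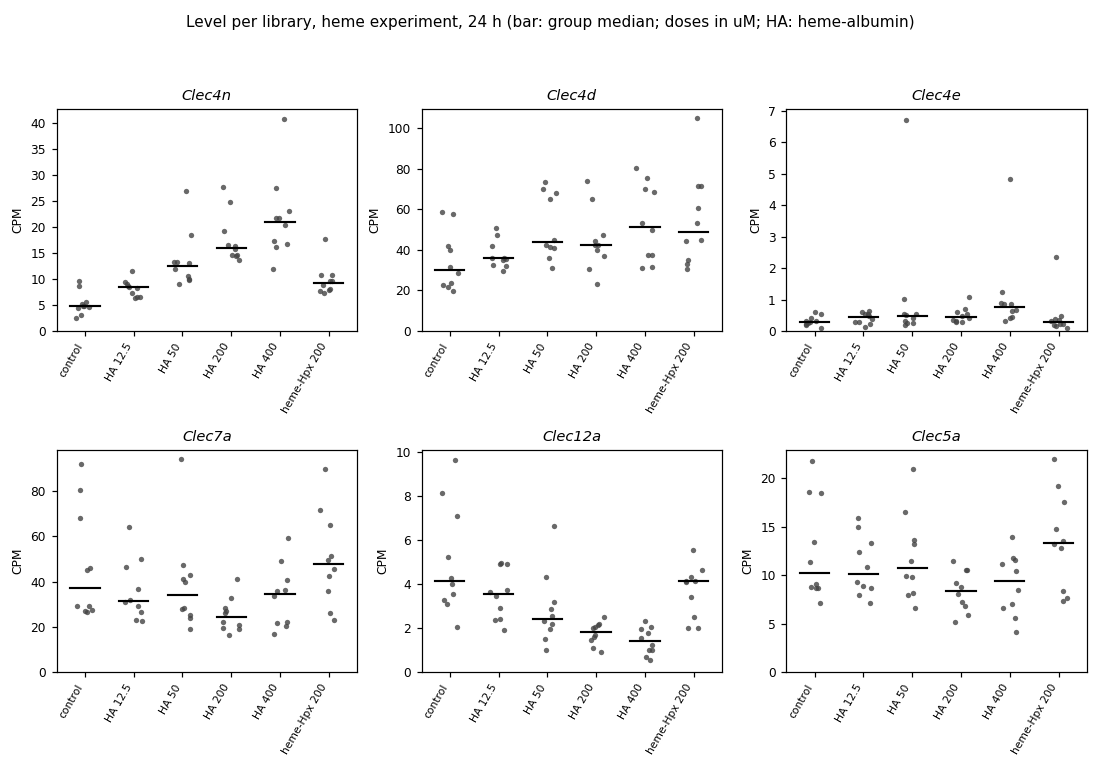
Level of each of the 6 receptors in CPM on the vertical axis, one point per library and a bar at the median, for control, the 4 heme-albumin doses and hemeHpx in batch 1 (10 libraries each). Clec4n medians climb from 4.80 to 21.01 CPM across the doses while those of Clec12a go from 4.15 to 1.39, and Clec4e is low but for 3 libraries at 2.36, 4.82 and 6.71 CPM.

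Microglia markers moved with heme-albumin as well. The summed level of the 21 listed microglia markers was 937 to 3587 CPM (median 1690) in controls and 703 to 1690 (median 1230) at 200 μM, where 12 of 19 tested markers fell. At 400 μM 8 of 19 fell, among them Gpr34 (-1.98), Cx3cr1 (-1.05), Fcrls (-1.004) and P2ry12 (-0.86). In whole slices, fewer microglia and less RNA per microglia cannot be told apart. Set against that sum, Clec4n came to 2.91 ± 1.11 CPM per 1000 CPM of microglia markers in controls (mean ± SD, n = 10), 5.34 ± 2.19 at 12.5 μM, 8.72 ± 4.39 at 50 μM, 15.99 ± 5.86 at 200 μM and 20.4 ± 14.2 at 400 μM. The ranges in control (1.26 to 5.15) and at 200 μM (9.76 to 25.7) did not overlap. How many other genes part in this way on this scale was not counted, and the lower marker sum at 200 μM by itself raises a ratio to it. The medians at 200 and 400 μM were close, at 12.9 and 12.3, and the range at 400 μM ran from 7.72 to 49.1.

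On the same scale Clec4d was 18.2 ± 4.10 in controls, 37.5 ± 4.80 at 200 μM and 42.9 ± 15.98 at 400 μM (mean ± SD, n = 10). Clec7a, by contrast, was 23.8 ± 5.65 in controls and had means of 21.6 and 25.8 at 200 and 400 μM, and Clec5a had means of 6.52, 7.14 and 7.02. Clec12a was 2.63 ± 0.861 in controls and 1.08 ± 0.305 at 400 μM, and so was lower on both scales. The part of the microglia markers in these results was not tested further.

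**Figure D2:**
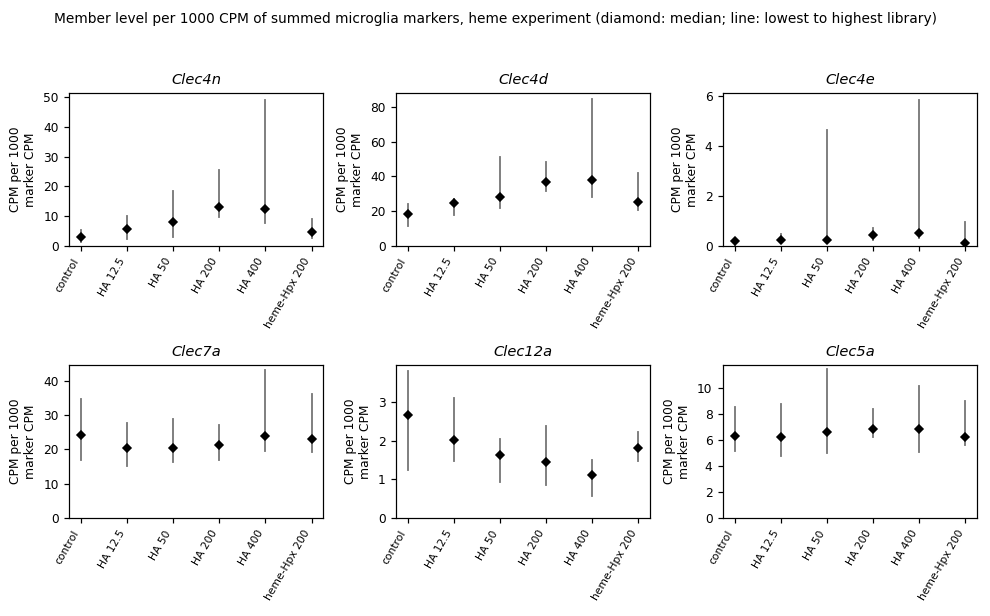
Level of each receptor per 1000 CPM of summed microglia markers in batch 1, with the diamond at the median and the line spanning the lowest to the highest of 10 libraries per group. Clec4n has a range of 1.26 to 5.15 in control and 9.76 to 25.7 with heme-albumin at 200 μM, while Clec7a and Clec5a keep overlapping ranges.

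HemeHpx at 200 μM was set against heme-albumin at the same heme dose. The groups differ in both carriers, albumin and hemopexin, and no group of batch 1 held either carrier alone. Effects of heme and of its carriers therefore cannot be told apart. Clec4n stayed above control but below heme-albumin, and Clec7a, Clec12a and Clec5a were higher than with heme-albumin. Clec4n lay between 7.34 and 17.6 CPM (median 9.19) with hemeHpx, with 3 of 10 libraries above every control and 9 of 10 below every heme-albumin library. It was 0.90 ± 0.20 (SE, adjusted p = 0.015) above control and -0.85 ± 0.19 (adjusted p = 0.0012) relative to heme-albumin. Clec4d lay between 30.5 and 105 CPM (median 48.98), 0.67 ± 0.21 (adjusted p = 0.045) above control, and differed from heme-albumin by 0.30 (adjusted p = 0.28). Thus 2 of 6 members were called against control, where 8.2% of all genes were called.

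Clec7a lay between 23.1 and 89.9 CPM (median 47.6) with hemeHpx, 0.99 ± 0.26 (SE, adjusted p = 0.0055) above heme-albumin. Clec12a lay between 2.01 and 5.55 (median 4.14), a difference of 1.08 ± 0.27 (adjusted p = 0.0031). Clec5a lay between 7.27 and 21.98 (median 13.3), a difference of 0.70 ± 0.22 (adjusted p = 0.016). For each of these genes 7 of 10 hemeHpx libraries were above every heme-albumin library. Against control the same 3 genes gave 0.09, -0.43 (adjusted p = 0.24) and 0.12, none past the threshold. For Clec4e, with few counts, the medians were 0.284 CPM with hemeHpx and 0.449 with heme-albumin, and 5 of 10 hemeHpx libraries were below every heme-albumin library while 1, at 2.36 CPM, was above them all. The fitted difference was 0.00 ± 0.43. In all, 4 of 6 members were called between the forms of heme, beside 25.9% of all genes. Of 19 microglia markers tested, 16 were also higher with hemeHpx than with heme-albumin (summed level 1200 to 2930 CPM, median 2100), and their part in these differences was not tested.

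With Hb alone at 24 h Clec4n rose at 400 μM, and at 48 h the levels of Clec4n and Clec4d were above those of the controls at both doses. Clec4n was at 6.18 to 12.7 CPM (median 8.03) in controls at 24 h and at 4.79 to 11.9 (median 6.70) in controls at 48 h. With Hb at 24 h it was 8.77 to 24.4 (median 12.4) at 200 μM and 11.8 to 24.8 (median 16.8) at 400 μM. At 48 h it was 11.3 to 25.03 (median 16.9) at 200 μM and 10.98 to 31.3 (median 17.9) at 400 μM. Between 8 and 9 of 10 libraries stood above every control at 400 μM for 24 h and at both doses for 48 h. The differences at 24 h were 0.67 ± 0.18 (SE, adjusted p = 0.20) at 200 μM and 1.04 ± 0.18 (adjusted p = 0.00011) at 400 μM. At 400 μM the value was 1.03 (adjusted p = 0.0025) within E1, where 0.231% of all genes were called, and 0.95 (adjusted p = 0.24) within E2, where 0.124% were called, so the call was lost within E2. At 48 h the differences were 1.17 ± 0.19 and 1.32 ± 0.19, as a description.

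Clec4d with Hb at 48 h was 27.8 to 80.3 CPM (median 37.1) at 200 μM and 26.3 to 83.8 (median 48.1) at 400 μM, against 10.1 to 44.995 (median 17.6) in controls. Its ranges overlapped those of the controls, with 4 and 7 of 10 libraries above the highest control. The differences were 0.88 ± 0.21 (SE) and 1.05 ± 0.21, again as a description. Of the other 4 members edgeR and DESeq2 called none at either dose at 48 h, and 0 had an unadjusted p under 0.05, where 0.31% and 0.601% of all genes were called. At 24 h Hb called 0 and 1 of the 6, beside 0.0971% and 0.522%. At 200 μM and 24 h, where edgeR called none, 2 members had an unadjusted p under 0.05 and DESeq2 called none. Within E1 and E2 at 48 h, Clec4n differed by 1.05 and 1.49 at 200 μM and by 1.10 and 1.80 at 400 μM. Clec4d differed by 0.81 and 0.85 at 200 μM and by 1.14 and 0.72 at 400 μM. edgeR called no member between 400 and 200 μM of Hb or, at 24 h, of HbHp (0%, 0% and 0.176% of all genes). Of those 18 tests 3 had an unadjusted p under 0.05, and DESeq2 called none.

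The lower HbHp dose at 48 h chose Clec4n and Clec4d by their rise, so nothing is read from its high place among the groups. As a description, HbHp at 400 μM for 48 h held the highest median of both genes among the assigned groups. At 400 μM for 48 h the 5 libraries held 48.8, 89.02, 50.4, 40.7 and 37.8 CPM of Clec4n, all above the 9 controls, whose highest was 11.9. Clec4d in the same libraries was at 139, 191, 215, 181 and 140 CPM, again all above the highest control at 44.995. Groups parted in this way, with the treated libraries higher, for 3.1% of all genes, and since these controls helped to choose both genes nothing is read from that. As a description, the difference was 2.80 ± 0.25 (SE, 95% interval 2.30 to 3.29), or 6.94-fold, for Clec4n and 2.42 ± 0.27, or 5.35-fold, for Clec4d. Within E2 alone, against 2 controls, the values were 2.94 ± 0.37 and 2.09 ± 0.37. These controls are also those of the Hb and Hp comparisons at 48 h.

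Clec4e, the partner of Clec4d, held 0.373, 4.67, 1.73, 1.58 and 0.676 CPM in the same 5 libraries, which is 8 to 128 counts, against 0.141 to 1.17 in controls. It differed by 1.23 ± 0.40 (SE, adjusted p = 0.032), but by 0.51 (adjusted p = 0.46) without the library at 4.67 CPM, and the call was lost within E2 as well (0.96, adjusted p = 0.39), where 4.01% of all genes were called. Clec12a held 4.61, 6.68, 7.38, 6.08 and 5.37 CPM, within the range of the controls (2.67 to 15.7, median 6.41). The E1 controls were at 2.67 to 6.98 and the 2 E2 controls at 13.3 and 15.7. Clec12a gave -1.07 ± 0.39 (adjusted p = 0.057 by edgeR), and DESeq2 called it. Within E2 it gave -1.23 (adjusted p = 0.12) in the fit by round and -1.33 (adjusted p = 0.018) in a fit of the E2 libraries alone. Clec7a, at 169, 184, 274, 277 and 210 CPM, lay within the range of the controls (0.48, adjusted p = 0.39). Clec5a, at 23.4, 28.7, 31.4, 33.2 and 31.6 CPM, stood partly above the highest control at 30.4 (0.31, adjusted p = 0.52). Of these 4 members 1 was called by edgeR, where 11.9% of all genes were called and 7.39% were higher. The median over the 6 was 0.86.

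At 24 h Clec4n and Clec4d were tested against controls that had no part in choosing them. With HbHp at 400 μM the 4 libraries held 28.3, 23.3, 14.9 and 26.4 CPM of Clec4n and 125, 98.3, 79.7 and 63.7 CPM of Clec4d, all above every control at 24 h, where the highest values were 12.7 and 42.7. Such a separation, upward, held for 1.93% of all genes. The differences were 1.39 ± 0.26 (SE, adjusted p = 0.00013) and 1.43 ± 0.28 (adjusted p = 0.0003), the only 2 members called beside 5.15% of all genes. In the fit by round they were 1.21 (adjusted p = 0.022) and 1.30 (adjusted p = 0.018) within E2, beside 1.37%. In a fit of the E2 libraries alone the Clec4n call was lost (1.13, adjusted p = 0.056), while that of Clec4d held. At 200 μM Clec4n lay between 11.6 and 20.6 CPM (median 18.6) and Clec4d between 49.8 and 69.3 (median 58.8). Clec4n was called at 1.02 ± 0.23 (adjusted p = 0.0048), the only member called by edgeR, beside 1.93% of all genes. Clec4d, with all 8 libraries above every control (0.425% of genes), gave 0.83 ± 0.24 (adjusted p = 0.052). It was past the threshold by DESeq2 (adjusted p = 0.037), with a replicate block (adjusted p = 0.037), without control replicate 8 (adjusted p = 0.035), with the batch term alone (adjusted p = 0.011) and with neither term. Within E2 the values at 200 μM were 0.83 (adjusted p = 0.18) for Clec4n and 0.70 (adjusted p = 0.38) for Clec4d, so the call was lost, beside 0.349% of all genes called.

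The HbHp 200 μM libraries at 48 h, which chose these genes, held 26.9 to 52.2 CPM of Clec4n (median 31.6) and 93.2 to 208 of Clec4d (median 102). The log2 fold changes were 2.23 ± 0.24 (SE) and 1.82 ± 0.25. Those of the other 4 were 0.32 for Clec4e, 0.32 for Clec7a, -0.91 ± 0.34 for Clec12a and 0.28 for Clec5a. Beside these, 11.9% of all genes passed the threshold, from which nothing is read for the members.

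**Figure D3:**
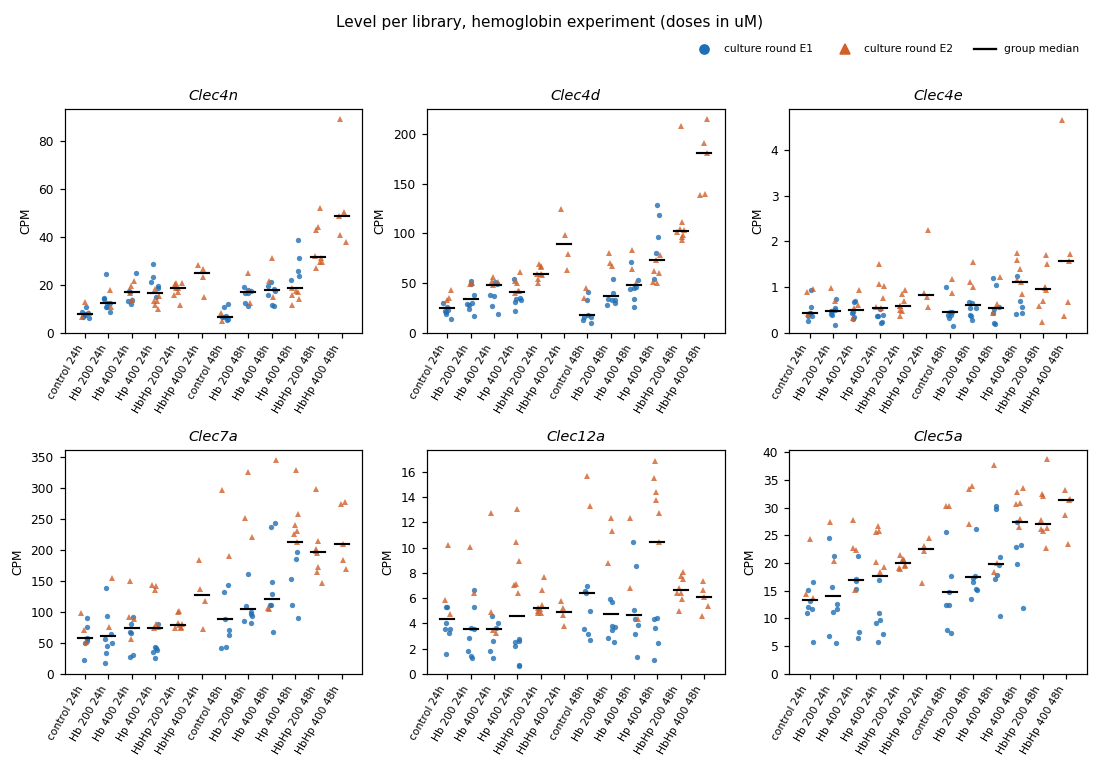
Level of each receptor in CPM on the vertical axis in batches 2 and 3, by treatment, dose and time, with blue circles for E1 libraries, orange triangles for E2 libraries and a bar at the median. Clec4n and Clec4d are highest with HbHp at 400 μM for 48 h (37.8 to 89.02 and 139 to 215 CPM), and the 2 E2 controls at 48 h stand above the E1 controls for Clec7a and Clec12a.

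To ask what Hp adds to Hb, the complexes were compared at the same dose and time. At 24 h no member was called between HbHp and Hb. Clec4n gave 0.35 ± 0.22 (SE, 95% interval -0.09 to 0.78) at 200 μM and 0.36 ± 0.26 at 400 μM, and Clec4d gave 0.29 ± 0.25 (95% interval -0.20 to 0.78) and 0.77 ± 0.28 (adjusted p = 0.13). edgeR called 0 members at either dose (0.607% and 2.21% of all genes), DESeq2 called 0, and 0 and 1 member had an unadjusted p under 0.05. At 400 μM and 48 h all 5 HbHp libraries were above all 10 Hb libraries for both Clec4n and Clec4d, as were 1.82% of all genes. There the differences were 1.48 ± 0.24 (adjusted p = 1.7e-05) and 1.37 ± 0.27 (adjusted p = 0.00057), 2 of 6 members beside 4.28% of all genes. Clec4e gave 1.08 (adjusted p = 0.13) and Clec12a -0.91 (adjusted p = 0.20). All HbHp libraries were batch 3 and E2, whereas 6 of these 10 Hb libraries were batch 2 and E1. The Clec4n call was lost in batch 3 alone (1.31, adjusted p = 0.052), while that of Clec4d held under all 23 alternatives. At 200 μM and 48 h the values were 1.06 ± 0.22 for Clec4n and 0.95 ± 0.24 for Clec4d, as a description beside 4.98% of all genes past the threshold.

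Hp alone at 400 μM raised Clec4n at 24 h, and at 48 h both Clec4n and Clec4d were above the controls. Clec4n was at 10.0 to 28.7 CPM (median 16.7) at 24 h, a difference of 0.89 ± 0.21 (SE, adjusted p = 0.030), with 10 of 12 libraries above every control. That call was lost without control replicate 11 (0.81, adjusted p = 0.091), with the batch term alone (adjusted p = 0.0505) and in batch 3 alone (adjusted p = 0.13). At 48 h Clec4n was at 11.7 to 38.9 CPM (median 18.9), a difference of 1.41 ± 0.22 as a description, with 10 of 11 above. Clec4d at 48 h was at 50.6 to 128 CPM (median 73.7), with 11 of 11 libraries above every control (0.127% of genes), a difference of 1.54 ± 0.23, from controls that helped to choose it, so that nothing is read from either value. Clec7a at 90.2 to 329 CPM (median 212) gave 0.72 ± 0.28 (adjusted p = 0.079), and Clec4e gave 0.73 (adjusted p = 0.15). Hp alone thus called 1 of 6 members at 24 h, beside 0.704% of all genes. At 48 h edgeR called none of the 4 members not chosen by their rise, with 3 at an unadjusted p under 0.05 and none by DESeq2, beside 10.8% of all genes.

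The Hp values were also taken by round. At 48 h Clec4d was 54.03 to 128 CPM (median 96.7) in the 5 E1 libraries and 50.6 to 78.5 (median 61.4) in the 6 E2 libraries, while the controls were at 10.1 to 40.6 (median 15.9) in E1 and at 35.03 and 44.995 in E2. As a description, the value against control was 2.19 ± 0.26 (SE) within E1 and 0.63 ± 0.34 within E2, a difference between the rounds of -1.55 ± 0.39. Clec4n at 48 h gave 1.75 within E1 and 1.19 within E2, a difference of -0.56 ± 0.38. At 24 h Clec4n gave 1.25 (adjusted p = 0.00044) within E1 and 0.44 (adjusted p = 0.81) within E2, where 1.63% and 0% of all genes were called.

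Against Hp alone at the same dose, HbHp was higher for Clec4d at both times and for Clec4n at 48 h. All 4 HbHp libraries at 24 h and all 5 at 48 h were above every Hp library for Clec4d, as for 0.358% and 0.364% of all genes. At 48 h Clec4n differed by 1.39 ± 0.21 (SE, adjusted p = 6.1e-06), with 4 of 5 libraries above every Hp library, and Clec4d by 0.88 ± 0.24 (adjusted p = 0.031). At 24 h Clec4d differed by 0.93 ± 0.25 (adjusted p = 0.049) and Clec4n by 0.51 (adjusted p = 0.49). Members called were thus 1 and 2 of 6, beside 0.619% and 1.44% of all genes. The Clec4d call at 24 h was lost under 10 of 23 alternatives, among them RLE scaling (adjusted p = 0.0503), no filter on low counts (adjusted p = 0.062) and a replicate block (adjusted p = 0.081). It was lost without the HbHp library at 125 CPM (0.74, adjusted p = 0.62), without that at 98.3 CPM (adjusted p = 0.20) and without that at 79.7 CPM (adjusted p = 0.079). At 48 h it was lost without replicate 2 (adjusted p = 0.073), replicate 3 (adjusted p = 0.13) or replicate 4 (adjusted p = 0.086).

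**Figure D4:**
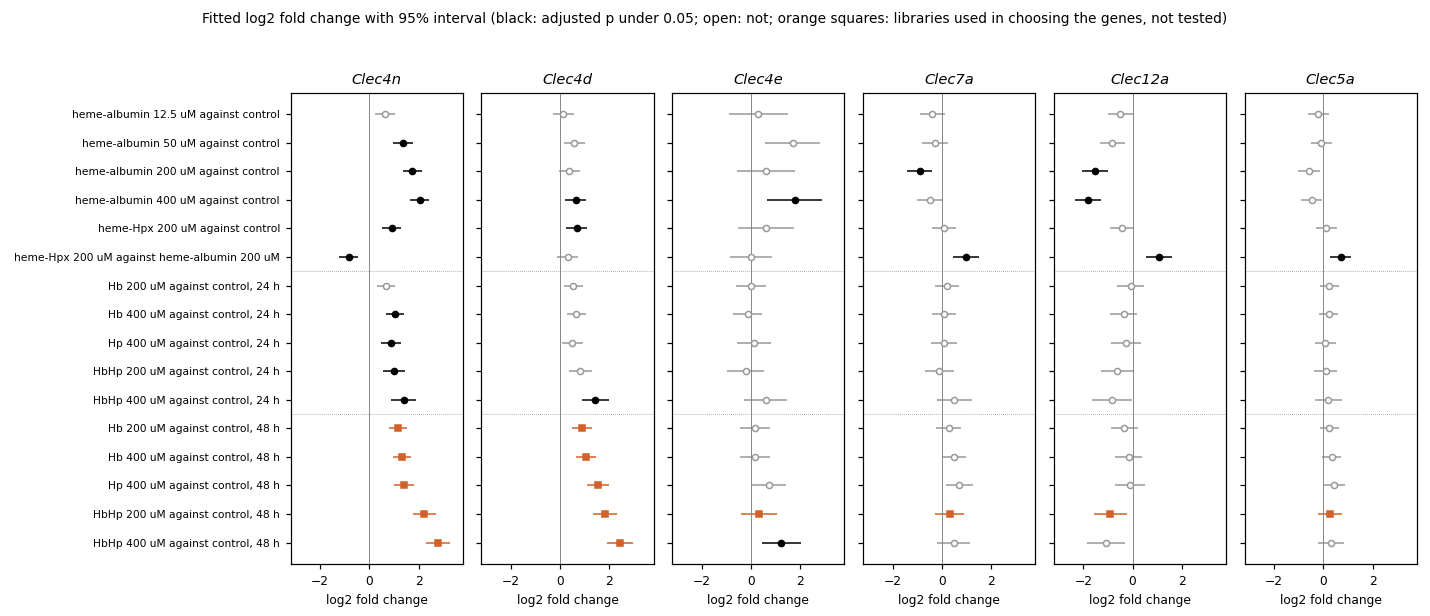
Log2 fold change of each receptor on the horizontal axis with its 95% interval, by comparison; filled black points are past the adjusted threshold, open points are not, and orange squares are values given without a test, those with HbHp at 200 μM for 48 h and those of Clec4n and Clec4d against the controls at 48 h. Clec4n and Clec4d have their largest values with HbHp at 400 μM for 48 h (2.80 and 2.42), and Clec12a its lowest with heme-albumin at 400 μM (-1.81).

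Time and round were tested in the controls themselves. From 24 h to 48 h Clec7a went from 23.1 to 98.6 CPM (median 57.2) to 41.9 to 297 (median 88.5), a difference of 0.84 ± 0.25 (SE, adjusted p = 0.038), with 4 of 9 libraries above every control at 24 h. It was the only one called of the 4 members not chosen by their rise, beside 4.5% of all genes, and the call was lost without either of 2 controls at 24 h or either of 2 at 48 h, and without the round term. At 48 h the 2 E2 controls held 190 and 297 CPM of Clec7a against 41.9 to 144 (median 70.99) in E1, a difference of 1.60 (adjusted p = 0.0010). Clec12a differed between the rounds by 1.59 (adjusted p = 0.0021), Clec5a by 1.15 (adjusted p = 0.0035) and Clec4e by 1.25 (adjusted p = 0.044). These 4 were thus called between the rounds at 48 h, where 38.5% of all genes were. Clec4d gave 0.95 and Clec4n -0.29, as a description. At 24 h 1 of 6 members was called, Clec4d at 0.71 (adjusted p = 0.045), beside 20.9%. The microglia sum was 1005 to 4051 CPM in the 7 E1 controls at 48 h and 5969 and 6684 in the 2 E2 controls.

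For the 4 members not chosen by their rise, edgeR called no change of a treatment effect from 24 h to 48 h in 16 tests (0.00759% of all such tests over genes), with 0 at an unadjusted p under 0.05 and none called by DESeq2. As a description, the value of Clec4n with HbHp at 400 μM was 1.403 ± 0.33 (SE) larger at 48 h than at 24 h and that of Clec4d 0.99 ± 0.36.

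Ordered by median level in batch 1, Clec4n ran from control through heme-albumin at 12.5 μM, hemeHpx, and heme-albumin at 50, 200 and 400 μM. Only the gap in means from control to 12.5 μM exceeded the pooled SD of its neighbours. In batches 2 and 3 its order by median was control at 48 h and 24 h, Hb at 200 μM for 24 h, Hp at 24 h, Hb at 400 μM for 24 h, Hb at 200 and then 400 μM for 48 h, HbHp at 200 μM for 24 h, Hp at 48 h, HbHp at 400 μM for 24 h, and HbHp at 200 and then 400 μM for 48 h. The gap in means from control at 24 h to Hb at 200 μM for 24 h exceeded the spread. The places of control at 48 h and of HbHp at 200 μM for 48 h were set by the choice of the gene and are only a description. Clec4d in batch 1 had no neighbouring groups apart by more than their spread.

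Markers of blood-derived cells were examined in the same libraries, since neutrophils and monocytes are known to carry Clec4n, Clec4d and Clec4e. The sum of the 20 listed monocyte and neutrophil markers was 712 to 1869 CPM (median 1446) in controls at 48 h and 720 to 2895 (median 1097) with HbHp at 400 μM. Most of it was Lcn2 and Vcan, and 12 of the 20 were under 1 CPM in every assigned library of batches 2 and 3. The sum is therefore not read as a measure of blood cells. Ly6c2 was at 0 in 9 of 9 controls and in 5 of 5 HbHp libraries. Ccr2 had medians of 0.186 and 0.219 CPM, and Ly6g was at 0 in 4 of 9 and 4 of 5. Of 8 markers tested, S100a8 (1.23), Mmp8 (1.15) and Lcn2 (0.77) rose and Vcan fell (-0.41). S100a8 was at 0.705 to 2.34 CPM (median 1.27) in controls and 1.68 to 5.62 (median 2.76) with HbHp. Sums of 13 dendritic cell markers were 8.98 to 14.7 and 9.79 to 13.9 CPM, and the 8 tested had a median value of -0.57. With heme-albumin at 400 μM S100a8 also rose (0.72) and Vcan fell (-0.53), and Ly6c2 was at 0 in 8 of 10 libraries. The part of these markers in the results was not tested.

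Resident cells were also followed with HbHp at 400 μM for 48 h. The microglia sum was 2379 to 5963 CPM (median 3823), against 1005 to 6684 (median 2737) in controls, and 1 of 20 tested markers was called, P2ry12 at -0.93. The 2 E2 controls, of the same round as every HbHp library, were at 5969 and 6684, above all HbHp libraries. Of 20 activated microglia markers Itgax (1.44) and Cybb (1.18) rose, and of 11 border macrophage markers Pf4 rose (0.84) and Cbr2 fell (-1.60). Per 1000 CPM of microglia markers, Clec4d was 8.86 ± 2.34 in controls at 48 h (mean ± SD, n = 9, range 5.24 to 12.7) and 46.3 ± 19.8 with HbHp at 400 μM (n = 5, range 30.4 to 80.4). Clec4n was 3.70 ± 3.33 and 15.8 ± 12.5. These controls helped to choose Clec4d and Clec4n, so the values of both genes are a description from which nothing is read. For Clec4d the 2 E2 controls were at 5.24 and 7.54, and for Clec7a at 31.9 and 44.4 against 46.4 to 77.5 with HbHp.

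The remaining lectin receptors and the pathway around the members were read from fixed lists. Over all genes tested, 6.98% were higher and 6.6% lower with heme-albumin at 200 μM, 14.7% and 14.3% at 400 μM, and 13% and 12.9% with hemeHpx against heme-albumin. With HbHp at 400 μM for 48 h 7.39% were higher and 4.56% lower than in controls. Of 54 other C-type lectin and related receptor genes 28 were tested in batches 2 and 3. With HbHp at 400 μM for 48 h, Clec1b (1.63), Clec4a1 (1.62), Clec4a2 (1.14) and Cd302 (0.37) rose and Pla2r1 (-0.68) fell, with a median of 0.098 over the list. Clec4a1 and Clec4a2 are close relatives of Clec4n. Clec4a1 was also higher than with Hb (1.87) and than with Hp (1.38) at the same dose and time, and with Hp also Ly75 (0.82). With heme-albumin at 200 μM 5 of 24 fell (median -0.31), among them Cd72 (-1.32), Olr1 (-1.11), Mrc1 (-0.83) and Colec12 (-0.52). At 400 μM 7 fell and 1 rose, Colec11 (1.07). With hemeHpx 7 of the 24 were higher than with heme-albumin, including Cd72 (1.2), Olr1 (1.15) and Clec3b (1.09).

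Among 29 adaptors and signalling genes, heme-albumin at 200 μM raised Src (0.37) and lowered 5, including Blnk (-0.91), Vav1 (-0.81), Fcer1g (-0.73) and Rasgrp3 (-0.66), of which Fcer1g encodes the shared Fc receptor gamma chain. HemeHpx was higher than heme-albumin for 12 and lower for 2, with Vav1 (0.85), Blnk (0.82) and Tyrobp (0.78), the DAP12 gene, among the higher. With HbHp at 400 μM for 48 h the transcription factor Egr2 rose (1.02). Of 14 inhibitors, heme-albumin at 200 μM lowered 5, among them Pilra (-1.18), Lair1 (-1.003), Ptpn6 (-0.60) and Sirpa (-0.46), and raised Rubcn (0.25). HbHp at 400 μM for 48 h raised Tnfaip3 (0.91), which restrains NF-κB, and lowered Ptpn11 (-0.28).

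Genes listed as induced downstream of Syk and Card9 are also induced by other receptors. The list was chosen with earlier results of these data known, so its counts are a description from which no pathway is read. With heme-albumin at 200 μM 4 of 13 tested rose, Il19 (2.37), Cxcl2 (2.05), Ptgs2 (1.54) and Cxcl1 (0.89), and 3 fell, Ccl4 (-1.45), Il1rn (-1.08) and Ccl3 (-0.75). At 400 μM 6 rose, led by Cxcl2 (3.59) and Il19 (3.05), and 3 fell. With HbHp at 400 μM for 48 h 6 of 14 rose, beside 7.39% of all genes, with Il19 (4.24), Il10 (3.45), Cxcl2 (1.59) and Ptgs2 (1.56) the largest and a list median of 0.79. Against Hb at the same dose Il10 (2.24), Cxcl2 (1.51) and Tnf (0.89) were higher, and against Hp Il10 (2.73), Cxcl2 (1.74) and Tnf (0.86). With Hb at 400 μM for 48 h Il19 was the 1 gene called (3.36), and with Hp at 48 h Il19 (2.93) and Ptgs2 (0.81) were called. Of 18 ligand and partner genes Prdx1, an antioxidant enzyme, rose with heme-albumin at 200 μM (0.76), hemeHpx (0.40), Hb at 400 μM for 48 h (0.68), Hp at 48 h (1.06) and HbHp at 400 μM for 48 h (1.95).

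Over the libraries, the levels of Clec7a and Clec5a were the most alike. Pearson's r between them, on log2 CPM, was 0.94 over the 60 libraries of batch 1. Over the assigned libraries of batches 2 and 3, after differences between batches and rounds were removed, it was 0.92. It was 0.50 and 0.77 between Clec4n and Clec4d, 0.78 and 0.63 between Clec7a and Clec12a, 0.77 and 0.70 between Clec12a and Clec5a, 0.68 and 0.65 between Clec4d and Clec5a, 0.66 and 0.63 between Clec4d and Clec7a, and -0.59 and -0.35 between Clec4n and Clec12a. These values describe libraries that share treatments, depth and microglia content. Other genes were ranked on the same log2 levels. The genes most like the mean of the 6 receptors, by the smaller r of both sets among 13865 genes, were Lyz2, Naip2, Cybb, Hvcn1, Prkcd, Syk, Ly9, Cd33, Hcls1 and Tnfrsf1b, with a smaller r of 0.883 to 0.915. Lyz2 (lysozyme) stood first at 0.915 and 0.944.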

How the data were processed

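The authors deposited whole-number read counts per Ensembl gene for each library, without normalization. The submitters' processing notes name featureCounts and GRCm39, and the aligner is not given in the sources used here. Whether strand was used in counting is not given either. Groups came from the treatment tags. The 21 libraries in which tag, title and library name conflicted were left out of every comparison, while the hemeHpx libraries were kept by tag and library name against their titles. Library names gave the round and the replicate code.

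Genes with low counts were removed with filterByExpr (minimum count 10, minimum total 15), leaving 15554 genes in batch 1 and 16473 in batches 2 and 3. Counts were scaled by TMM and tested with the quasi-likelihood F test of edgeR 4.0.16 in R 4.3.3 (limma 3.58.1), with Benjamini-Hochberg adjustment over all genes tested. The fit of batch 1 held 60 libraries in 6 groups, and that of batches 2 and 3 held 107 libraries in 12 groups with batch and round as terms. SE was the log2 fold change divided by the root of F, and the 95% interval spanned 1.96 SE to each side. No p is given for Clec4n and Clec4d against controls at 48 h, which entered their choice. Fits by round split each group of batches 2 and 3 by E1 and E2. DESeq2 1.42.0 served as an alternative, beside other scalings, filters, sample sets and single libraries left out. The fits were tested on simulated counts with known changes before use. The text names the 6 members, the 10 genes most like them by correlation (mean CPM of at least 1 in both sets) and, from each list, at most 4 called genes per comparison by size. Some called genes of the signalling list are not reported here. Members and lists were chosen with earlier results of these data known. The steps between doses, the fits by round and the fit without the 2 libraries highest in Clec4e were chosen after seeing the data. Exon lengths came from GENCODE M21 on GRCm38, promoter windows from RefSeq. Coordinates on the build of the files are not used here, since the genome at hand was another build.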

Additional observations from a re-analysis of the deposited data

Results flagged for a closer look

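In 96 combinations of a receptor and a group of 4 to 10 libraries, 13 had 1 library far above the others of its group by Dixon's test at the 95% level. That test flags about 1 in 20 groups by chance where levels are normally distributed. It was run on CPM without a log, so that rate may not hold here. Clec4e had 3 of the 13. With heme-albumin at 50 μM replicate 4 held 6.71 CPM (159 counts, the next library 1.01), with heme-albumin at 400 μM replicate 2 held 4.82 (135 counts, the next 1.24), and with hemeHpx replicate 4 held 2.36 (102 counts, the next 0.462). Clec4n was also high in replicate 4 of heme-albumin at 50 μM (26.8 CPM) and in replicate 4 of hemeHpx (17.6). It stood apart in replicate 10 of Hb at 400 μM for 48 h (31.3) and in replicate 2 of HbHp at 400 μM for 48 h (89.02), a library that also held the highest Clec4e of its group.

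Clec7a stood apart in replicate 5 of heme-albumin at 50 μM (94.2 CPM), replicate 8 of Hb at 400 μM for 24 h (149) and replicate 1 of HbHp at 200 μM for 48 h (298), and Clec4d in that last library as well (208). Clec12a stood apart in replicate 11 of the controls at 24 h in batches 2 and 3 (10.2) and in replicate 8 of Hb at 400 μM for 24 h (12.7), the library that also stood out for Clec7a.

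The effect of Hp on Clec4d at 48 h differed between the rounds, by -1.55 on the log2 scale from E1 to E2 in a direct test of the difference. Its controls also entered the choice of Clec4d, so the value is a description.

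The 20 libraries tagged as HbHpx at 400 μM, whose titles, and for some also the library names, point to other treatments, entered no comparison. Scaled together with all libraries of batches 2 and 3, their Clec4n median was 13.3 CPM at 24 h and 17.9 at 48 h, with 5 of 10 and 10 of 10 libraries above the highest control of that time (12.6 and 12.1). Their Clec4d median was 46.6 at 24 h and 94.5 at 48 h, with 8 of 10 and 9 of 10 libraries above the highest control (42.5 and 46.1). The controls at 48 h helped to choose both genes, so the values at 48 h are a description from which nothing is read. No share of all genes is given beside these counts.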

How the results depend on the processing

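Of 26 calls of a member in comparisons that had no part in choosing it, 16 were past the threshold under every alternative run. The counts below against controls at 48 h include Clec4n and Clec4d, which those controls helped to choose. Heme-albumin against control gave 8 calls over 4 doses and 5 when 10 counts were required in every library, which left 4 members tested. HemeHpx against control gave 2, and 1 without a filter or with its 30 libraries alone. Hb against control gave 5, but 0 in batch 3 alone and 1 in E2 alone. Hp against control gave 3 and 0 in either subset, and both hold fewer libraries. HbHp against Hb gave 2, and 5 without batch and round terms. Control at 48 h against 24 h gave 1, and 0 in batch 3 alone, with the batch term alone and with neither term. The interactions gave 0, and 1 by DESeq2. The median member value with HbHp at 200 μM for 48 h was 0.317, and -0.135 in batch 3 alone, 0.00596 in E2 alone, 0.817 with the batch term alone and 0.748 with neither term. The cause of these shifts was not tested. Leaving out single libraries gave 5 to 7 calls for HbHp against control (6), 1 to 3 for HbHp against Hp (3), 2 for HbHp against Hb, 0 for the interactions and 0.316 to 0.404 for that median. HbHp against Hp fell to 1 without replicate 4 at 48 h. With HbHp at 200 μM for 48 h against control Clec7a turned to -0.16 in batch 3 and in E2, and Clec5a to -0.11 and -0.14. Against Hb Clec12a turned to 0.0479 with the batch term alone and 0.16 with neither term.

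Libraries that shared the letter and digit code in their names deviated together in part, and the main fits do not use this code. The median r of deviations was 0.275 in batch 1 and 0.0742 in batches 2 and 3. For other pairs the medians were -0.047 and -0.0152. Of the pairs that shared a code 59.4% and 47% were above 0.1, and the lowest r was -0.842 and -0.900. With that code as a replicate block heme-albumin gave 9 calls, with Clec12a at 50 μM added (-0.85, adjusted p = 0.032), HbHp against control 8, HbHp against Hp 2, the median 0.400 and control at 48 h against 24 h 0, and the other counts did not move. Clec12a with HbHp at 400 μM for 48 h passed under 5 alternatives. Receptors under 1 CPM, Clec4e above all, are limited by depth.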
